A study of Mus musculus with 6 samples.

Results

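The 33 genes described here encode the proteins that carry pyruvate into mitochondria, turn it into acetyl-CoA, run the tricarboxylic acid (TCA) cycle, exchange malate and aspartate, make or use glutamate and glutamine, and move citrate back to the cytosol. They were chosen by name, through the match of the deposited Ensembl gene identifiers to gene symbols, and are 33 of the 55335 genes in the table. All 33 were found once, and all 33 passed the filter on low counts. The cells were wild-type mouse embryonic fibroblasts (MEFs), an adherent connective tissue cell labelled as the cell line MEFs and cultured in medium with fetal bovine serum. One group (Confine) had crossed a transwell membrane with 3 μm pores and was collected below it 15 h after seeding, and the other (Ctrl) was the parental cells. The labels name no other agent or allele in either group. The comparison asks which transcripts differ in cells that have squeezed through narrow pores. Passage through the pore, culture on the membrane and selection of the cells able to cross cannot be told apart in this design. The paper's transwell method, written for wider pores, seeds cells in medium without serum above medium with serum. Whether the cells here were seeded in this way is not stated, and a part of serum cannot be told apart either.

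Pyruvate made by glycolysis enters the mitochondrial matrix through the mitochondrial pyruvate carrier. There the pyruvate dehydrogenase complex converts it to acetyl-CoA, and the complex is switched off by kinases that phosphorylate it and switched on by phosphatases that remove the phosphate. The TCA cycle oxidizes acetyl-CoA and also supplies citrate, 2-oxoglutarate and oxaloacetate for lipid and amino acid synthesis, so that proliferating fibroblasts refill it from glutamine and from pyruvate.

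Polyadenylated RNA was sequenced, and the authors deposited raw counts per gene in 6 columns, 3 per group. The columns of Confine replicates 1 and 2 held the same value in all 55335 genes, whereas any other pair of columns was equal in at most 58.5% of genes, so these columns were counted as 1 library (the repeated Confine library) and n was 3 for Ctrl and 2 for Confine. Column totals ran from 22287210 to 32537550 counts. Nothing in the labels says whether the libraries of a group came from separate cultures or dates, so p-values measure only the spread between these libraries. Of 10 fibroblast markers, 8 passed the filter on low counts and Thy1 and Lum were at or near 0 in all libraries. The summed level of the list was 8745 to 9602 CPM (counts scaled to the normalized size of each library) in Ctrl and 15730 to 16510 in Confine. Of the 8, 6 were higher in Confine and 2 were lower. Pdgfrb had 96.9 ± 4.70 CPM (SD, n = 3) in Ctrl and 75.5 ± 17.0 CPM (SD, n = 2) in Confine. S100a4 had 17.85 ± 2.19 CPM (SD, n = 3) in Ctrl and 14.7 ± 0.472 CPM (SD, n = 2) in Confine. The summed leukocyte markers were at 7.23 to 8.395 CPM in Ctrl and 18.4 to 25.9 CPM in Confine, with Ptprc and Adgre1 at or near 0. Within that list Cd68 was higher in Confine (3.14 ± 0.773 CPM, SD, n = 3, in Ctrl and 20.0 ± 4.78 CPM, SD, n = 2, in Confine) and Lyz2 was lower (4.26 ± 0.864 CPM and 0.684 ± 0.155 CPM). The summed epithelial markers were at 0.340 to 0.416 CPM in Ctrl and 3.89 to 8.78 CPM in Confine, most of it Krt19 in Confine, with Epcam and Krt18 at 0. The summed endothelial markers were at most 0.718 CPM in any library. The part of these markers in the results was not tested. In bulk RNA, fewer cells that express a gene and less of its RNA per cell cannot be told apart.

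In Confine, 9 of the 33 genes fell and 2 rose at an adjusted p under 0.05 (quasi-likelihood test of edgeR, Benjamini-Hochberg over the 15881 genes tested). These 11 of the 33 (33.3%) compare with 23.0% of all tested genes that passed in either direction, 10.2% lower and 12.8% higher in Confine. The 33 genes were chosen with earlier results of these data known, so these shares are a description and not a test. Of the calls over all tested genes, 55.7% were higher (34.0% with library size alone), against 2 of the 11 calls among the 33. Among the 8596 tested genes whose average level lay within the range of the 33, 26.7% passed, 12.3% lower and 14.3% higher in Confine. The genes that fell were Mpc2, Dlat, Pdhx, Pdp1, Idh1, Idh3a, Suclg2, Mdh1 and Pcx, and those that rose were Me2 and Slc25a1. The median log2 fold change of the 33 genes was -0.26, against a median of -0.0020 over all tested genes, and 25 of the 33 estimates were negative. The cutoff stated by the study, an absolute log2 fold change above 1.5, was also passed by 1 gene that rose (Me2) and 1 that fell (Pcx), and 8.00% of all tested genes passed it, 4.89% higher and 3.11% lower. The values of 20 of the 33 genes did not overlap between the groups, 16 with Confine below and 4 with Confine above, where 49.5% of all tested genes did not overlap, 23.6% with Confine below and 25.9% with Confine above. As a share of raw counts, which uses no normalization factor, the 33 genes together took 0.466%, 0.410% and 0.468% of the Ctrl libraries and 0.349% and 0.352% of the Confine libraries. With the TMM scaling used for all tests, their summed level was 3789 to 4485 CPM in Ctrl and 3811 to 3837 CPM in Confine, which overlapped.

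The changes in Pdp1, Pcx, Me2 and Slc25a1 passed the test in every one of the 14 alternative fits. The other 7 calls were each lost in at least 1 fit without a library, that of Idh1 only where a Confine library was left out. The 7 log2 fold changes stayed negative in these fits. They ran from -0.818 to -0.585 for Idh1 and from -1.245 to -0.635 for Dlat. Without Ctrl replicate 1, 4 genes were lower, without the repeated Confine library 3 and without Confine replicate 3 only 2, while 2 genes were higher in each of these fits. With a Confine library left out, the group holds 1 library, whose spread is taken from Ctrl.

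**Figure D1:**
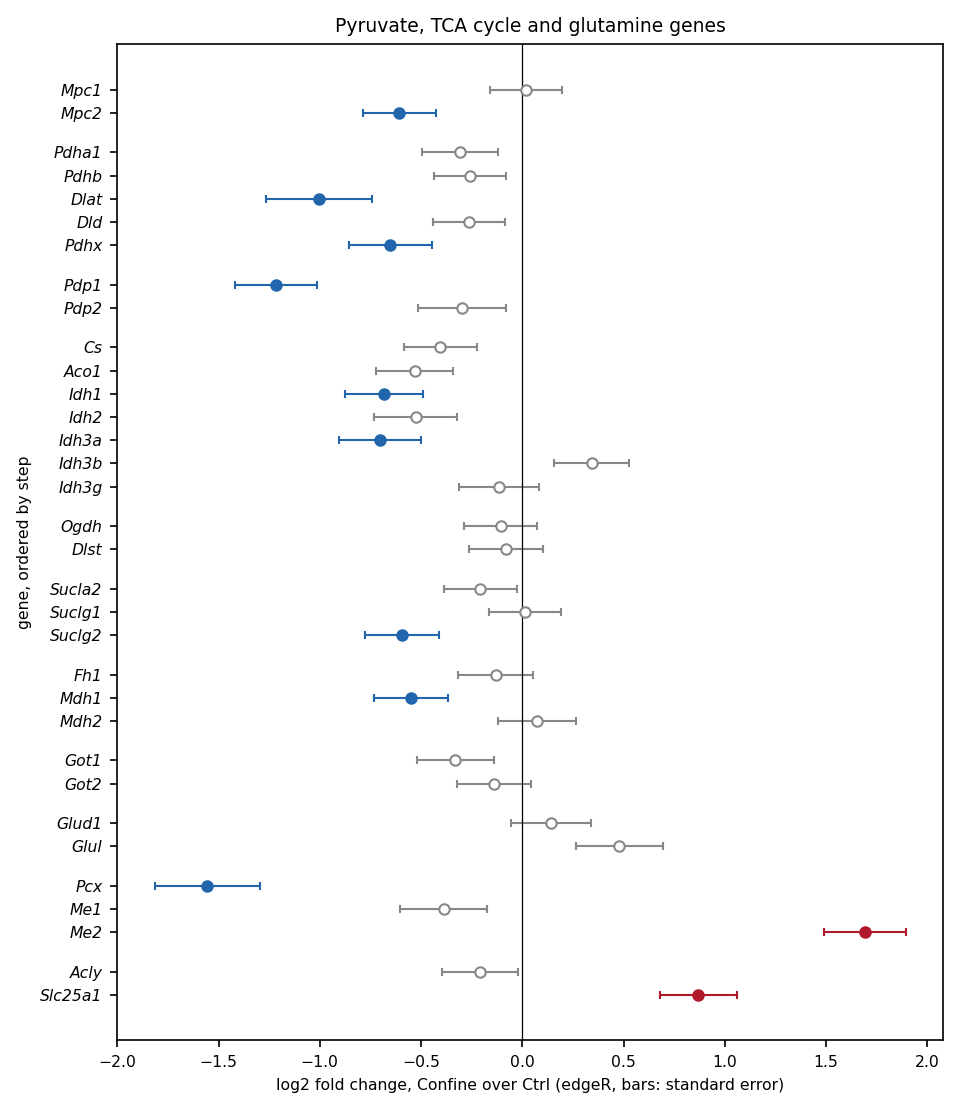
Log2 fold change of Confine over Ctrl (x axis) for each of the 33 genes (y axis, grouped by step from pyruvate entry at the top to citrate export at the bottom), with bars for the standard error of the edgeR fit from 3 Ctrl and 2 Confine libraries. Filled blue points are the 9 genes that fell, filled red points the 2 that rose at an adjusted p under 0.05, and open grey points the other 22, and the points range from -1.56 for Pcx to 1.69 for Me2.

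At the level of single genes, the 33 covered a wide range in Ctrl. Per transcript length, as TPM (counts per exon length, scaled to 1 fixed total in each library), Mdh2, the mitochondrial malate dehydrogenase, had the highest level with 747.1, 539.5 and 722.8 TPM, and Mdh1, its cytosolic counterpart, followed with 354.2, 339.3 and 410.7 TPM. Idh3g was next with 274.5, 194.0 and 286.2 TPM, so these 3 neighbours in the order did not overlap. Pcx was the lowest with 8.17, 6.17 and 6.74 TPM, below Glul with 9.84, 9.77 and 13.1 TPM. From the ninth place, Pdha1, to the fourteenth, Suclg1, the Ctrl means lay between 89.3 and 82.3 TPM and neighbours were not separated by their spread. These levels are given per length only within Ctrl, and all comparisons between groups below use normalized CPM.

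Pyruvate entry involves 2 genes whose products form a single carrier in the inner mitochondrial membrane. Mpc2 (chromosome 1, 165460637 to 165481214, plus strand, in GRCm38 like all positions here) had 106.5, 104.2 and 119.0 CPM in Ctrl and 73.0 and 71.3 CPM in Confine. Both Confine libraries were below all Ctrl libraries, and the log2 fold change was -0.61 (standard error, SE, 0.18, edgeR adjusted p = 0.0194). Mpc1 had 62.6, 57.0 and 64.3 CPM in Ctrl and 60.3 and 63.9 CPM in Confine. The Mpc1 groups overlapped (log2 fold change 0.018, SE 0.18, edgeR adjusted p = 0.958), with a sign that was negative with library size alone, without Ctrl replicate 2 and without Confine replicate 3. The log2 ratio of Mpc1 to Mpc2 counts within a library, which no scaling between libraries can move, was -0.84 ± 0.066 (SD, n = 3) in Ctrl and -0.22 ± 0.083 (SD, n = 2) in Confine. All libraries of one group lay on one side of the other (two-sided exact permutation test, p = 0.1, the minimum attainable with these libraries, and 0.133 after adjustment over the 8 pairs examined). Without Ctrl replicate 3 or without either Confine library, Mpc2 no longer passed the test.

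The pyruvate dehydrogenase complex is built from an E1 tetramer (Pdha1, Pdhb), an E2 core that transfers the acetyl group (Dlat), a protein that anchors E3 to the core (Pdhx) and the E3 flavoprotein (Dld). All 5 transcripts were lower in both Confine libraries than in any Ctrl library, as were 23.6% of all tested genes, and Dlat and Pdhx passed the test. Dlat (chromosome 9, 50634633 to 50659780, minus strand) had 61.6, 27.2 and 38.3 CPM in Ctrl and 21.1 and 21.3 CPM in Confine. Ctrl replicate 1 was far above the other Ctrl libraries. The log2 fold change of Dlat was -1.003 (SE 0.26, edgeR adjusted p = 0.00916), and the call was lost without Ctrl replicate 1, where the estimate was -0.64, and without either Confine library. Pdhx (chromosome 2, 103021075 to 103073513, minus strand) had 33.7, 23.6 and 28.2 CPM in Ctrl and 19.6 and 16.6 CPM in Confine (log2 fold change -0.65, SE 0.21, edgeR adjusted p = 0.0271). The Pdhx groups did not overlap, and the call was lost without Ctrl replicate 1 or without either Confine library. For Pdha1, Pdhb and Dld the log2 fold changes were -0.31, -0.26 and -0.26, with edgeR adjusted p from 0.262 to 0.334. Pdha1 passed the test with library size alone in place of the TMM normalization.

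Both pyruvate dehydrogenase phosphatases, which remove the inhibitory phosphate from E1, were measured, and Pdp1 fell while Pdp2 did not pass the test. Pdp1 (chromosome 4, 11958184 to 11966452, minus strand) had 106.8, 103.4 and 142.0 CPM in Ctrl and 54.4 and 46.5 CPM in Confine. The gap between the groups was wider than the range of the Ctrl libraries. Its log2 fold change was -1.22 (SE 0.20, edgeR adjusted p = 1.94e-04), and it ranged from -1.43 to -1.08 over the alternative fits. Pdp2 had 146.4, 109.6 and 152.8 CPM in Ctrl and 136.3 and 85.3 CPM in Confine, with overlapping groups (log2 fold change -0.30, SE 0.22, edgeR adjusted p = 0.361). Within libraries, the log2 ratio of Pdp1 to Pdp2 was -0.22 ± 0.21 (SD, n = 3) in Ctrl and -1.10 ± 0.32 (SD, n = 2) in Confine, without overlap (two-sided exact permutation test, p = 0.1, the smallest possible).

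Among the citrate and isocitrate steps, 2 of 7 genes fell (Idh1 and Idh3a) and the other 5 did not pass the test. That is 28.6% of the 7, beside 23.0% of all tested genes that passed, 10.2% lower and 12.8% higher in Confine. Idh3a encodes the catalytic subunit of the mitochondrial NAD-dependent isocitrate dehydrogenase, and Idh3b and Idh3g its other subunits. Idh3a (chromosome 9, 54586334 to 54604661, plus strand) had 111.3, 84.1 and 94.1 CPM in Ctrl and 69.0 and 49.7 CPM in Confine, all Confine values below all Ctrl values (log2 fold change -0.70, SE 0.20, edgeR adjusted p = 0.0170). The call was lost without Ctrl replicate 1, where the estimate was -0.59, and without Confine replicate 3, where it was -0.49. Idh3b had 150, 127.6 and 171.4 CPM in Ctrl and 181.6 and 197.7 CPM in Confine, with Confine above Ctrl in all libraries but without passing the test (log2 fold change 0.34, SE 0.18, edgeR adjusted p = 0.2001). Idh3g overlapped between the groups, with 242.6 ± 51.9 CPM (SD, n = 3) in Ctrl and 224.0 ± 11.2 CPM (SD, n = 2) in Confine. The ratio of Idh3a to Idh3b counts, examined after these values had been seen and therefore not tested, was 0.742, 0.659 and 0.549 in Ctrl and 0.380 and 0.252 in Confine.

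Idh1 and Idh2 encode the NADP-dependent isocitrate dehydrogenases of the cytosol and of mitochondria, which supply NADPH. Idh1 (chromosome 1, 65158616 to 65186500, minus strand) had 150.9, 201.7 and 202.9 CPM in Ctrl and 123.6 and 106.8 CPM in Confine (log2 fold change -0.69, SE 0.19, edgeR adjusted p = 0.0147). Its groups did not overlap, and the call was lost only without either Confine library. Idh2 had 179.9, 123.7 and 140.9 CPM in Ctrl and 88.6 and 117.3 CPM in Confine, which did not overlap either, but it missed the threshold (log2 fold change -0.53, SE 0.21, edgeR adjusted p = 0.0738). Their log2 ratio, Idh1 to Idh2, overlapped between the groups, with 0.33 ± 0.51 (SD, n = 3) in Ctrl and 0.17 ± 0.44 (SD, n = 2) in Confine (two-sided exact permutation test, p = 0.7). Citrate synthase (Cs), which starts the cycle, and Aco1, the cytosolic aconitase that also acts as an iron-regulated RNA-binding protein, were lower in both Confine libraries without passing the test. Cs had 255.0, 218.3 and 229.9 CPM in Ctrl and 170.8 and 183.4 CPM in Confine (edgeR adjusted p = 0.114). Aco1 had 31.5, 34.7 and 28.7 CPM in Ctrl and 24.0 and 19.8 CPM in Confine (edgeR adjusted p = 0.0534), and it passed with the RLE size factors, with DESeq2 and with library size alone.

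Further along the cycle, the 2-oxoglutarate dehydrogenase subunits Ogdh (E1) and Dlst (E2) showed overlapping groups, with log2 fold changes of -0.11 (SE 0.18) and -0.079 (SE 0.18), and that of Dlst turned positive without Ctrl replicate 2. Succinyl-CoA synthetase pairs the shared subunit Suclg1 with either Sucla2, which gives ATP, or Suclg2, which gives GTP. Suclg2 (chromosome 6, 95473009 to 95718800, minus strand) had 49.7, 50.6 and 49.5 CPM in Ctrl and 30.3 and 35.8 CPM in Confine. The Ctrl libraries were nearly equal and both Confine libraries were below them (log2 fold change -0.59, SE 0.18, edgeR adjusted p = 0.0244), and the call was lost without Ctrl replicate 1 or without either Confine library. Sucla2 had 131.7, 110.4 and 127.9 CPM in Ctrl and 114.9 and 98.8 CPM in Confine, with overlap (log2 fold change -0.21, SE 0.18, edgeR adjusted p = 0.461). Suclg1 had a log2 fold change of 0.013 (SE 0.18), whose sign turned negative with library size alone, with RLE size factors, with DESeq2 and without Ctrl replicate 2 or 3 or the repeated Confine library. The log2 ratio of Sucla2 to Suclg2 was 1.30 ± 0.15 (SD, n = 3) in Ctrl and 1.69 ± 0.32 (SD, n = 2) in Confine (two-sided exact permutation test, p = 0.1, the smallest possible). Fumarate hydratase (Fh1) had 107.5 ± 14.3 CPM (SD, n = 3) in Ctrl and 98.1 ± 5.39 CPM (SD, n = 2) in Confine, which overlapped.

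In the malate-aspartate shuttle, which carries reducing equivalents across the inner membrane, cytosolic enzymes can be set beside their mitochondrial counterparts. Mdh1 (chromosome 11, 21556787 to 21572367, minus strand) had 326.7, 304.2 and 379.5 CPM in Ctrl and 224.3 and 235.4 CPM in Confine, without overlap (log2 fold change -0.55, SE 0.18, edgeR adjusted p = 0.0350). Mdh2 had 956.2, 671.3 and 926.7 CPM in Ctrl and 920.3 and 868.9 CPM in Confine, with overlap (log2 fold change 0.072, SE 0.19, edgeR adjusted p = 0.834), and its sign was negative with library size alone or without Ctrl replicate 2. The call of Mdh1 was lost without Ctrl replicate 1 or 3 and without either Confine library. The log2 ratio of Mdh1 to Mdh2 was -1.33 ± 0.21 (SD, n = 3) in Ctrl and -1.96 ± 0.11 (SD, n = 2) in Confine, without overlap. Neither aspartate transaminase passed the test. Got1 (cytosolic) had 57.7 ± 7.96 CPM (SD, n = 3) in Ctrl and 45.9 ± 0.782 CPM (SD, n = 2) in Confine, and Got2 (mitochondrial) 214.8 ± 26.9 and 195.3 ± 10.9 CPM, with edgeR adjusted p of 0.231 and 0.646. The log2 ratio of Got1 to Got2 was -1.90 ± 0.023 (SD, n = 3) in Ctrl and -2.09 ± 0.056 (SD, n = 2) in Confine, without overlap. For these 2 ratios the two-sided exact permutation test gave p = 0.1, the smallest possible.

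The largest changes in both directions were in enzymes that connect pyruvate with the 4-carbon acids of the cycle. Pyruvate carboxylase (Pcx) makes oxaloacetate from pyruvate in mitochondria. Pcx (chromosome 19, 4510472 to 4621752, plus strand) had 404, 271 and 271 counts in Ctrl and 96 and 123 counts in Confine, which are 13.96, 10.2 and 11.5 CPM and 3.24 and 4.88 CPM. Every Confine value was below 5 CPM and every Ctrl value above 10 CPM, with a log2 fold change of -1.56 (SE 0.26, edgeR adjusted p = 2.10e-04). Mitochondrial malic enzyme (Me2) makes pyruvate from malate with NAD. Me2 (chromosome 18, 73769903 to 73815449, minus strand) had 47.9, 52.4 and 41.9 CPM in Ctrl and 120.7 and 185.4 CPM in Confine, with a log2 fold change of 1.69 (SE 0.20, edgeR adjusted p = 5.87e-06). The Confine libraries differed from each other by more than the Ctrl libraries did, and without Confine replicate 3 the log2 fold change was 1.35. Both genes kept an adjusted p under 0.05 in all 14 alternative fits, but not all estimates passed the cutoff on the fold change. Among the fits with another scaling or without a library, it was missed by Me2 with library size alone and without Confine replicate 3, and by Pcx without Ctrl replicate 1 and without the repeated Confine library. The cytosolic, NADP-dependent malic enzyme Me1 had 35.0, 43.4 and 29.1 CPM in Ctrl and 22.8 and 31.9 CPM in Confine, with overlap (log2 fold change -0.39, SE 0.21, edgeR adjusted p = 0.213). The log2 ratio of Me1 to Me2 was -0.42 ± 0.13 (SD, n = 3) in Ctrl and -2.47 ± 0.093 (SD, n = 2) in Confine, the widest shift of the 8 pairs (two-sided exact permutation test, p = 0.1, the smallest possible).

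Citrate leaves mitochondria through the carrier Slc25a1 and is cleaved to acetyl-CoA in the cytosol by ATP citrate lyase (Acly). Slc25a1 (chromosome 16, 17925223 to 17928219, minus strand) had 58.5, 69.7 and 48.9 CPM in Ctrl and 104.0 and 111.9 CPM in Confine, without overlap (log2 fold change 0.87, SE 0.19, edgeR adjusted p = 0.00224), and it ranged from 0.66 to 1.01 over the alternative fits. Acly had 62.6, 71.7 and 53.5 CPM in Ctrl and 56.4 and 52.0 CPM in Confine, with overlap (log2 fold change -0.21, SE 0.19, edgeR adjusted p = 0.479). Whether the 2 differences differ from each other was not tested.

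Of the nitrogen-handling members, glutamate dehydrogenase (Glud1) turns glutamate into 2-oxoglutarate, and glutamine synthetase (Glul) makes glutamine. Neither passed the test. Glul had 11.8, 11.3 and 15.7 CPM in Ctrl and 19.9 and 16.0 CPM in Confine, where both Confine values were above all Ctrl values by a narrow margin (log2 fold change 0.48, SE 0.21, edgeR adjusted p = 0.120). Glud1 had 91.8 ± 19.8 CPM (SD, n = 3) in Ctrl and 101.4 ± 7.27 CPM (SD, n = 2) in Confine (edgeR adjusted p = 0.666), and the sign of its log2 fold change of 0.14 was negative with library size alone or without Ctrl replicate 3.

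**Figure D2:**
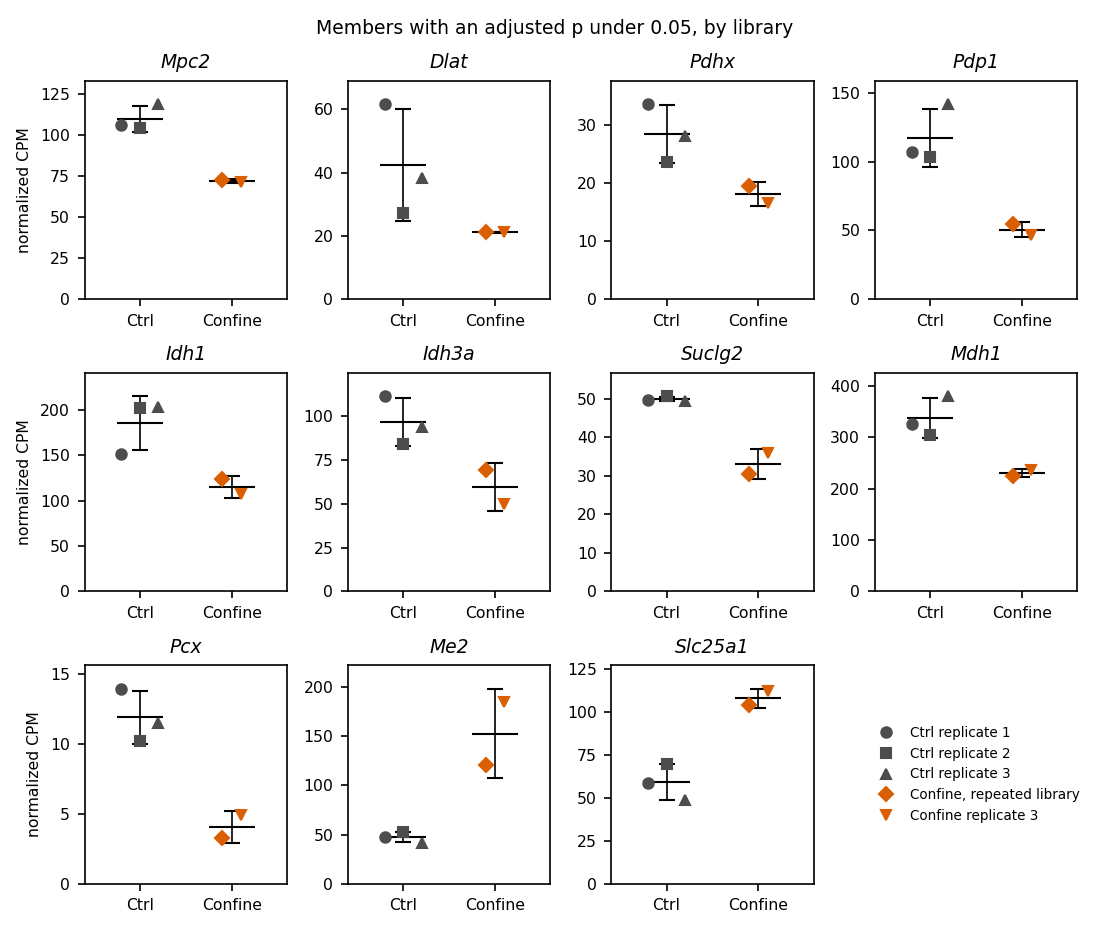
Normalized CPM (y axis, from 0) in each library for the 11 genes with an adjusted p under 0.05, with black bars for the mean and SD of 3 Ctrl and 2 Confine libraries. In each panel the Confine points lie wholly below the Ctrl points, or wholly above them for Me2 and Slc25a1, and Ctrl replicate 1 stands apart for Dlat at 61.6 CPM.

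**Figure D3:**
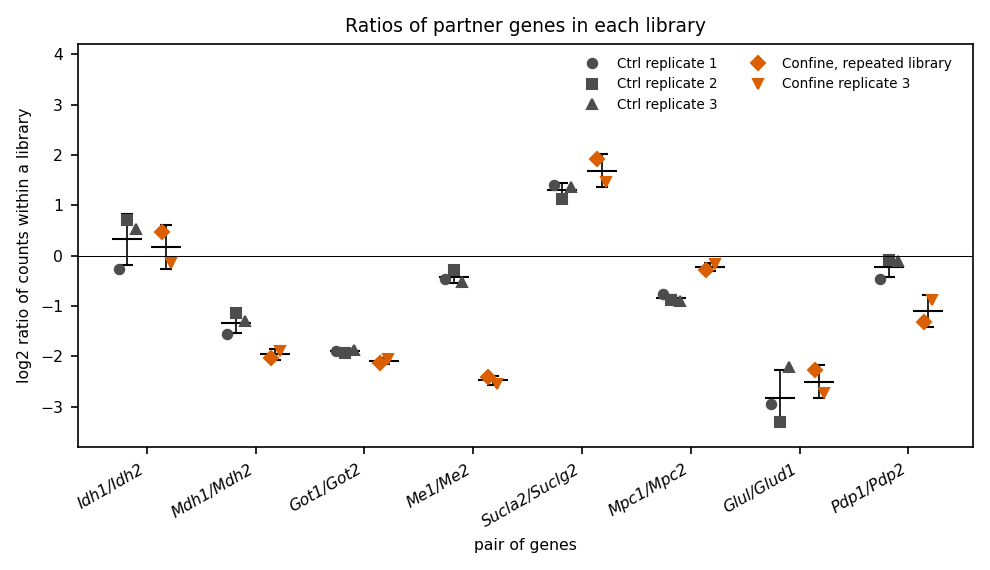
Log2 ratio of counts of a pair of genes within each library (y axis) for 8 pairs (x axis), with black bars for the mean and SD of 3 Ctrl and 2 Confine libraries. The Me1/Me2 ratio falls from a mean of -0.42 to -2.47, while the Idh1/Idh2 and Glul/Glud1 ratios overlap between the groups.

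Promoter sequence was examined for the members that moved, because the hypoxia response element, bound by hypoxia-inducible factors, is a known control element of pyruvate metabolism genes. Its core, ACGTG or GCGTG, was searched on both strands, overlapping matches were each counted, and the E-box CACGTG contains the first form on both strands. RefSeq promoter windows (GRCm38.p6, 250 bases before to 50 after the start) were matched by symbol for 30 of the 33 genes, and those of Me2, Pdp1 and Idh3a were not among them. The core was found for 21 of these 30 genes (70.0%), against 66.5% of the tested genes with a window and 46.7% of all genes with one. It was found for 5 of the 7 genes with a window that fell (71.4%), for Slc25a1, and for 15 of the 22 that did not pass (68.2%). The 250 bases before the start are shown for Slc25a1 (chr16:17928220-17928469, minus strand), which rose and has several matches, for Pcx (chr19:4510222-4510471, plus strand), which fell and also has matches at this start, and for Dlat (chr9:50659781-50660030, minus strand), which fell and has none. Capitals mark the core.
Slc25a1: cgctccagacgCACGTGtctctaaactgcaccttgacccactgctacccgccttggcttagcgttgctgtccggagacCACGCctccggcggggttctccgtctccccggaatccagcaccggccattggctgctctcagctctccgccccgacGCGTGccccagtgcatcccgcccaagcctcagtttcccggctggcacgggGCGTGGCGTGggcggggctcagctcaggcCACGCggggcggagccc
Pcx: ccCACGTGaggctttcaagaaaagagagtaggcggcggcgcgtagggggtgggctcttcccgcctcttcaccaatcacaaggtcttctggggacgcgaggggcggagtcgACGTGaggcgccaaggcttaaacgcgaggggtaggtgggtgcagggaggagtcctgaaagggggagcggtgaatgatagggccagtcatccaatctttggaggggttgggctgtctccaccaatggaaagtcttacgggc
Dlat: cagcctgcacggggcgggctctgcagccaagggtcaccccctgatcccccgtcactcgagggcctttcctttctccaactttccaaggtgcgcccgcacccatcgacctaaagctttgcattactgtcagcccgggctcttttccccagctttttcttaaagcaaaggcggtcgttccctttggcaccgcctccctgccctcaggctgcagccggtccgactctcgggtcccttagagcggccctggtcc
The Slc25a1 stretch holds 7 matches and the Pcx stretch 3, some of them overlapping. Pcx has another start in the table, whose 250 bases (chr19:4594069-4594318, plus strand) hold no match. The amino acid response element core TGATGNAA was found for 1 of the 30 members (Got1), against 2.66% of the tested genes with a window. The sterol response element TCACNCCAC was found for 0 of the 30, against 1.41%, and a missing match says only that these letters are not in this window.

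A second list of 41 genes that feed or regulate the same steps was examined beside the members. Of these, 37 passed the filter, and 10 fell and 4 rose. That is 37.8% of those tested, against 23.0% of all tested genes, 10.2% lower and 12.8% higher in Confine. The second list was chosen with earlier results of these data known, so its share is a description and not a test. Pdk4 and Dhtkd1 were near 0, and Pck1 and Acss1 had 0 counts in all 5 libraries. The pyruvate dehydrogenase kinases, which switch the complex off, rose where they changed. Pdk1 had 17.3, 20.3 and 16.1 CPM in Ctrl and 164.8 and 178.9 CPM in Confine (log2 fold change 3.27, SE 0.19, edgeR adjusted p = 6.06e-10). Pdk3 had 16.8, 17.3 and 14.8 CPM in Ctrl and 20.6 and 31.7 CPM in Confine (log2 fold change 0.68, edgeR adjusted p = 0.0241), a call that was lost without Ctrl replicate 1 or 3, without Confine replicate 3 and with library size alone. Set beside Pdp1, the phosphatase that fell, Pdk1 had 0.162, 0.196 and 0.113 times its counts in Ctrl and 3.03 and 3.84 times in Confine. This ratio was chosen after its values had been seen and was not tested. The ratio leaves out Pdp2, the other phosphatase, which did not pass the test. Pdp2 had 136.3 and 85.3 CPM in Confine, above the 54.4 and 46.5 CPM of Pdp1.

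Among glutamine genes, Gls2, a glutaminase, had 43, 20 and 29 counts in Ctrl and 251 and 312 counts in Confine (log2 fold change 3.16, SE 0.31, edgeR adjusted p = 6.29e-07). All 3 glutamine and neutral amino acid transporters of the list fell, as did 10.2% of all tested genes. Slc38a1 had 17.6, 17.5 and 15.6 CPM in Ctrl and 5.54 and 5.56 CPM in Confine (log2 fold change -1.61, edgeR adjusted p = 2.51e-05). Slc1a5 and Slc38a2 had log2 fold changes of -0.82 and -0.74, and both calls were lost without Confine replicate 3, that of Slc1a5 also without the repeated Confine library.

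Enzymes that use glutamate, glutamine, aspartate or oxaloacetate were also among the genes that fell. Asns, asparagine synthetase, had 238.7, 163.9 and 191.1 CPM in Ctrl and 54.1 and 53.3 CPM in Confine (log2 fold change -1.88, SE 0.21, edgeR adjusted p = 2.21e-06). Psat1, the phosphoserine transaminase that yields 2-oxoglutarate, had 702.3, 468.3 and 512.5 CPM in Ctrl and 174.5 and 184.4 CPM in Confine (log2 fold change -1.65, SE 0.21, edgeR adjusted p = 1.15e-05). Gpt2, the mitochondrial alanine transaminase, fell by 0.92 on the log2 scale, a call lost without the repeated Confine library. Pck2, the mitochondrial phosphoenolpyruvate carboxykinase, which withdraws oxaloacetate, had 202.2, 171.5 and 193.2 CPM in Ctrl and 71.0 and 104.0 CPM in Confine (log2 fold change -1.11, edgeR adjusted p = 4.65e-04). In all 4 genes, which had already passed the test, the groups did not overlap. The same held for 49.5% of all tested genes, 23.6% with Confine below.

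Of the mitochondrial carriers in that list, the dicarboxylate carrier Slc25a10 had a log2 fold change of -1.17 (SE 0.21, edgeR adjusted p = 4.37e-04). Slc25a13, an aspartate-glutamate carrier, had one of -1.83 (SE 0.34, edgeR adjusted p = 6.04e-04). Slc25a13 had 126, 136 and 103 counts in Ctrl, a mean of 4.62 CPM, and 27 and 43 counts in Confine. The other aspartate-glutamate carrier of the list, Slc25a12, had a higher level, 49.8, 39.5 and 44.4 CPM in Ctrl and 30.4 and 32.7 CPM in Confine. The Slc25a12 groups did not overlap, but it did not pass the test (log2 fold change -0.50, SE 0.19, edgeR adjusted p = 0.0625). Acss2, which makes acetyl-CoA from acetate in the cytosol, had 108, 124 and 50 counts in Ctrl and 193 and 335 counts in Confine (log2 fold change 1.49, SE 0.33, edgeR adjusted p = 0.00246), and did not pass without Confine replicate 3, where the log2 fold change was 0.89. The succinate dehydrogenase subunits Sdha, Sdhb, Sdhc and Sdhd had log2 fold changes from -0.43 to 0.11, with edgeR adjusted p from 0.108 to 0.781.

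**Figure D4:**
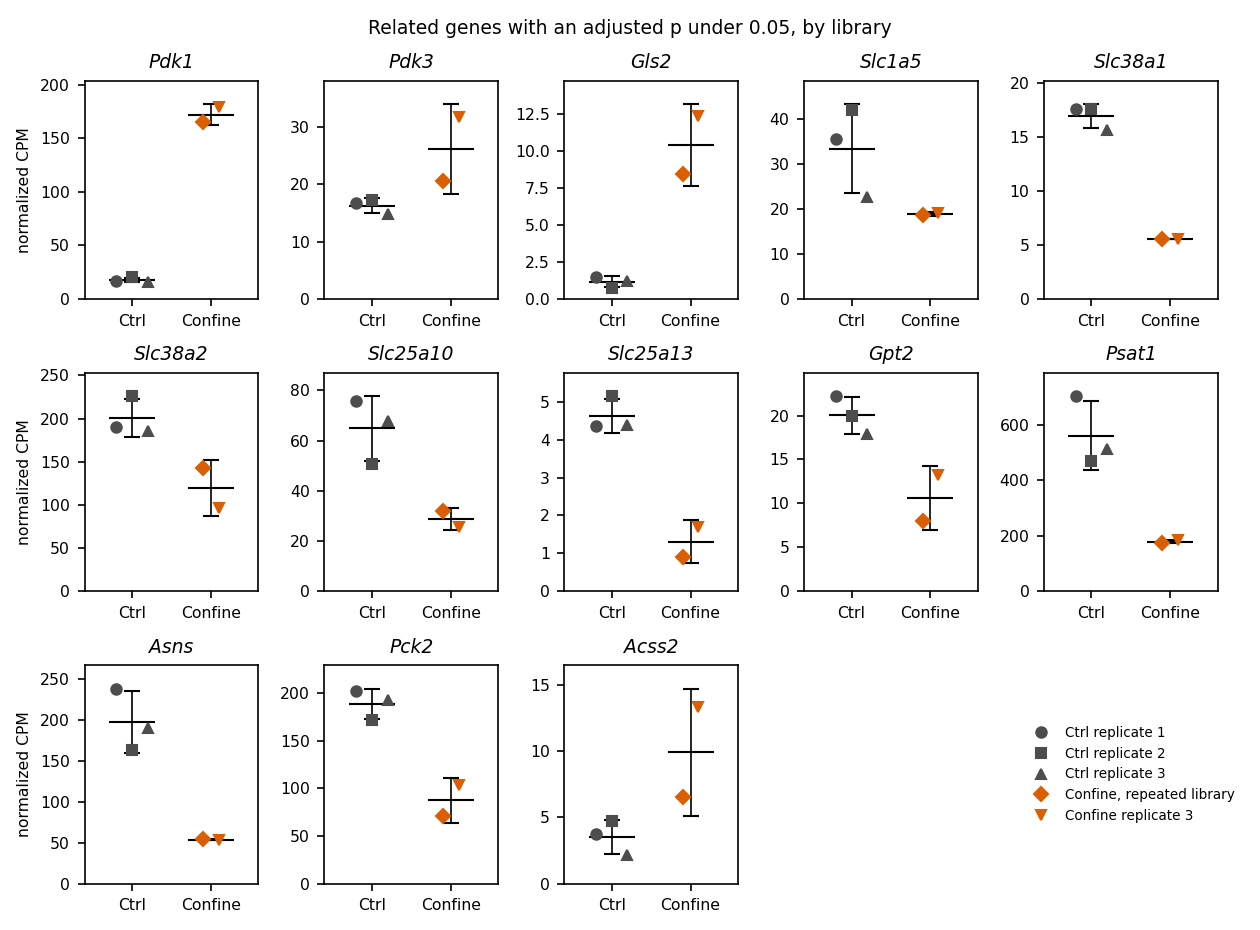
Normalized CPM (y axis, from 0) in each library for 13 genes of the second list with an adjusted p under 0.05, with black bars for the mean and SD of 3 Ctrl and 2 Confine libraries. Pdk1 reaches 164.8 and 178.9 CPM in Confine against at most 20.3 CPM in Ctrl, whereas Psat1 and Asns lie far below their Ctrl values.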

How the data were processed

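Raw counts per gene were deposited by the authors for 6 columns. Per the labels, the submitters' processing notes name Trim Galore 0.6.10, HISAT2 2.1.0, SAMtools 1.5, featureCounts and the build mm10, and the libraries keep the strand (dUTP). The counting annotation and strand setting are not given in the sources used here, and Idh3b overlaps Nop56 on the opposite strand by 5 bp. Of 55335 identifiers, 55154 matched GENCODE M21 (GRCm38) without the version, which gave symbols, positions and exon lengths. Columns not used numbered 0.

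Identical columns were counted once (3 Ctrl, 2 Confine libraries). Genes were kept by filterByExpr, normalized by TMM (factors 0.910 to 1.08) and tested by quasi-likelihood in edgeR 4.0.16 (R 4.3.3) with 3 residual degrees of freedom. Normalized CPM are relative to the TMM-scaled library size, and a floor of 3 counts corresponds to 0.101 to 0.128 CPM, a limit from counting alone, because PCR copies could not be removed by identifiers. The standard error (SE) was derived from the fold change and its F statistic. Ratios within a library used 0.5 added counts. Scripts were tested on simulated data. DESeq2 1.42.0 and limma 3.58.1 (voom) were alternatives, with other normalizations, filters, a replicate block and fits without single libraries.

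The 33 genes, the second list and the motifs were chosen with earlier results of these data known. Values in each library are given for members with an adjusted p under 0.05 and their partners in the ratio pairs, and genes of the second list are named where they passed with an absolute log2 fold change above 1, and the values of some genes of that list are not reported here. Of the others named, Cs, Aco1, Idh3b, Glul, Acly, Pdk3, Slc1a5, Slc38a2, Slc25a12 and Gpt2 were chosen after their values were seen.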

Additional observations from a re-analysis of the deposited data

How the results depend on the processing

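Among genes with a call, counts were fewest for Gls2 (down to 20) and Slc25a13 (down to 27). The number of members lower in Confine, 9, was 14 when scaled by library size alone, which moved the median of all tested genes by -0.21 and the median of the members to -0.47, and the 5 added genes were Pdha1, Cs, Aco1, Idh2 and Got1. It ran from 2 to 12 with each library left out, and the number higher was 2 in each of these fits. The number past the fold cutoff was 0 for higher genes with library size alone, and with each library left out it ran from 0 to 1 in either direction. Of the second list, 16 genes were lower with library size alone, and from 2 to 4 were higher with each library left out. Over all tested genes, 3654 passed in the reported fit and from 2054 to 4426 with each library left out. RLE size factors, DESeq2, limma-voom and the other filters kept every count within 1.5 times, and with the identical columns counted as 2 samples 12 members were lower.

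The labels do not say that replicate numbers mark a shared batch, and with the repeated library as number 1 or 2 only 2 pairs exist, with correlations of deviations across genes of 0.15 or -0.13 for that library and -0.025 for number 3. The deviations of 2 Confine libraries from their own mean mirror each other, so these values are not separate and cannot show whether a batch is shared. With the replicate block and the repeated library as number 1, 14 members and 16 genes of the second list were lower, and with it as number 2, 3 members were lower and 0 lower members passed the fold cutoff, where Pcx was at -1.45 on the log2 scale. The block leaves 1 residual degree of freedom. It did not change the calls of Pdp1, Pcx, Me2 and Slc25a1.

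Of the values near 0, some changed sign. Scaling to library size alone gave log2 fold changes of -0.19 for Mpc1, -0.20 for Suclg1, -0.13 for Mdh2 and -0.068 for Glud1. Suclg1 was just below 0 with RLE size factors and with DESeq2, and Mpc1 was at -0.0080 with the identical columns as 2 samples. With the replicate block and the repeated library as number 1 it was -0.032 for Mpc1, 0.029 for Dlst, -0.021 for Suclg1, and -0.074 for Mdh2. With each library left out, Mpc1 ranged from -0.036 to 0.062, Dlst from -0.18 to 0.023, Suclg1 from -0.085 to 0.11, Mdh2 from -0.078 to 0.16, Glud1 from -0.016 to 0.31 and the Idh1/Idh2 difference from -0.46 to 0.16. The cause of these moves was not tested.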
